A study of Mus musculus with 27 samples.

Results

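Nrf2 is the transcription factor that switches on genes of glutathione synthesis, detoxification and antioxidant defence, and it works within a small family of partners, relatives and inhibitors. The 10 genes described here are that family: Nfe2l2, which encodes Nrf2; its relatives Nfe2l1 (Nrf1), Nfe2 (p45 NF-E2) and Nfe2l3 (Nrf3); Keap1, which holds Nrf2 in the cytoplasm and presents it to a Cul3 ubiquitin ligase; the repressors Bach1 and Bach2; and the small Maf proteins Mafg, Mafk and Maff. Members were taken by gene name from the probe annotation of the arrays, 10 of 27806 named genes. They were read by 16 probes, of which 13 carried the same member's name on all arrays.

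The relatives of Nrf2 are cap'n'collar proteins with a basic leucine zipper. None of them binds DNA well alone; each pairs with a small Maf protein, which has a zipper but no activation domain, and the pair sits on the antioxidant response element of target genes. Bach1 and Bach2 pair with the same small Maf proteins and repress, and heme releases Bach1 from its targets. Nrf1 is best known for raising proteasome genes when the proteasome is impaired. In stratified squamous epithelia, loss of Keap1 is known to let Nrf2 accumulate and to thicken the keratinized layer.

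Expression was measured in esophagi of mice on a C57BL/6J background, 3 arrays in each of 9 groups and 27 in all. Wild-type (WT) whole esophagi came from E11.5 and E15.5 embryos, from newborn pups (P0) and from pups at postnatal day 7 (P7). At P7 there were also whole esophagi of Nrf2-/-, Keap1-/- and Nrf2-/-Keap1-/- pups, which lack the gene in every cell from conception. Adult WT and Nrf2-/- samples, from mice of 8 weeks, were esophageal epithelium and not whole esophagus, so between P7 and adult the age and the part of the tissue cannot be told apart. RNA came from single esophagi, and in such bulk RNA fewer cells of a type and less RNA per cell cannot be told apart either.

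Each array compared the sample, labelled with Cy5, with a reference RNA from 11 mouse cell lines, labelled with Cy3, with no dye swap. All levels below are log2 ratios of Cy5 to Cy3, so a level of 0 means as bright as the reference, and a difference of 1 is 2-fold. Levels compare arrays for 1 gene and not genes with each other. A gene is called different where limma's p, adjusted by Benjamini-Hochberg over all genes tested, is 0.05 or lower.

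Across arrays the median Cy5 brightness was 81.8 to 226, and 58.9% to 69.3% of spots were well above background. The arrays lay on 11 slides scanned on 4 days with 2 versions of the reading software. The 3 Keap1-/- arrays had a slide, a scan day and, among P7 arrays, the newer version to themselves. For Keap1-/-, genotype and these settings cannot be told apart. The WT P7 arrays also had a slide to themselves, so slide and group cannot be told apart in any comparison with WT P7. Only E11.5 to E15.5 and Nrf2-/-Keap1-/- against Nrf2-/- could be separated from slide. All adult Nrf2-/- arrays had the newer version and a later scan day. WT adult replicates 1 and 2 had the older version and the first scan day, and only WT adult replicate 3 shared a version and scan day with Nrf2-/- arrays. Adult genotype is therefore only partly separable from these settings. The embryonic labels did not match the arrays' likeness: E11.5 replicate 3 correlated at r = 0.975 and 0.971 with E15.5 replicates 2 and 3 but at 0.828 and 0.771 with its own group, and E15.5 replicate 1 at 0.952 and 0.918 with E11.5 replicates 1 and 2 but at 0.802 and 0.811 with its own. Deposited labels were kept, and values without both arrays are given where they change a call. Stratified epithelium markers (Krt5, Krt14, Krt15, Krt4, Krt13, Trp63 and Cdh1) were well above background for 7 of 7 genes from P0 onwards, at a mean of 3.97 to 4.78, and for 6 of 7 in embryos, where the mean ran from 1.23 to 3.73.

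The probes decide what can be said about Nfe2l2 and Keap1 in animals that lack these genes, so those sequences are shown first. Every probe is 60 bases long, and positions are those of the array annotation (mm9). The first 30 bases of each Nfe2l2 probe are given, all from the minus strand of chromosome 2.
A_51_P411271, chr2:75513771-75513830, the 3′-most: ctcaagttaatttcttaggcaccatttggg
A_52_P396436, chr2:75513917-75513976, 0.146 kb upstream of it: gtactgctaaaacttcctactgtgatgtga
A_52_P523835, chr2:75529947-75530006, 16.2 kb upstream: tagtaatcctttttataggcccaaattgca
A_52_P1107697, chr2:75538751-75538810, 25 kb upstream, named Nfe2l2 only in the older annotation: ggtagagtttggtaatgattaccctgtatt

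Keap1 had a single probe. Its 60 bases span 441 bases of the minus strand of chromosome 9 with a gap of 381 bases, so the probe crosses an intron and reads spliced RNA. Which exons the Keap1 and Nfe2l2 null alleles lack is not given in the sources used here.
A_51_P438666, chr9:21035292-21035732: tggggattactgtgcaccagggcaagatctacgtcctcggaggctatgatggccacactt

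Mafg, the small Maf gene on which the Keap1-/- result turns, was read by a pair of probes on the minus strand of chromosome 11. The second is named Mafg only in the older annotation and was kept out of the gene's mean, so it serves as a separate reading.
A_52_P240754, chr11:120490341-120490400: acgttgggatcagccagttcaacagtgatg
A_52_P596112, chr11:120488059-120488118: aggagtagtaggtctttgcttctgaacagg

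Nfe2l3, which changed most clearly among the relatives during wild-type development, has a probe on the plus strand of chromosome 6 that is shown whole. The second Nfe2l3 probe lies upstream of it, at chr6:51383065-51383124.
A_52_P423222, chr6:51408131-51408190: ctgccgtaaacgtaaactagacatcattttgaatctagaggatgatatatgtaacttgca

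In wild type, the mean level of Nfe2l2 was higher at P0 than at E15.5, and higher in adult epithelium than in P7 esophagi. Its levels were -1.47, -0.66 and -1.31 at E11.5 and -1.15, -1.30 and -1.12 at E15.5. At P0 they were -0.53, -0.28 and -0.40, and at P7 -0.23, 0.0044 and -0.55. In adult epithelium they were 1.27, 0.86 and 0.81. No P0 array reached down to an E15.5 array, no adult array reached down to a P7 array, and P0 and P7 overlapped. The pair of 3′ probes was called higher at both steps. The probe 16.2 kb upstream, also part of this mean, was called at neither. It differed by 0.38 from E15.5 to P0 (adjusted p = 0.388) and by 0.14 from P7 to adult (adjusted p = 0.559).

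**Figure D1:**
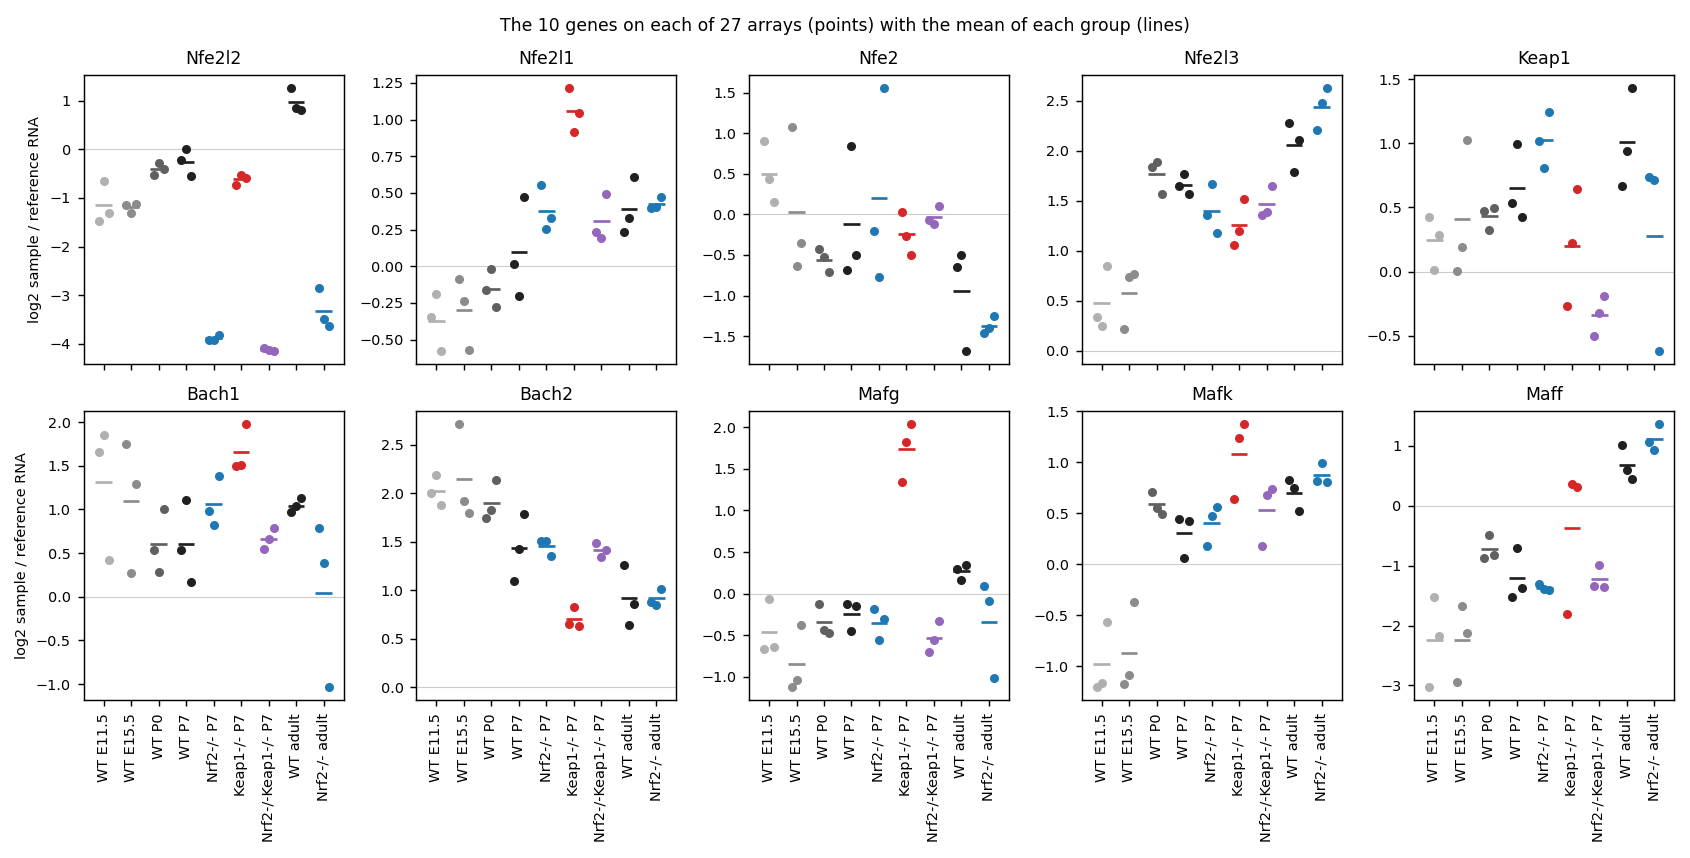
Log2 ratio of sample to reference RNA (vertical axis, a scale of its own for each gene) for the 10 genes on each of 27 arrays; points are arrays, lines the mean of the 3 arrays of a group, and colours the genotypes. Nfe2l2 falls to -4.14 to -2.85 in the 3 groups that lack Nrf2, and Mafg stands at 1.34 to 2.04 in Keap1-/- esophagi, above every other array.

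Among the 4 wild-type time points from E11.5 to P7, limma's F-test called 4 of the 10 genes, against 30.2% of all 19478 genes tested. They were Nfe2l2 (adjusted p = 0.00868), Nfe2l3 (0.000779), Mafk (0.00106) and Maff (0.0269). The 6 others, Nfe2l1, Nfe2, Keap1, Bach1, Bach2 and Mafg, had adjusted p from 0.148 to 0.582.

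Among neighbouring ages up to P7, members were called only between E15.5 and P0. All 4 genes were higher at P0, where 11.3% of all genes were called higher. Over all genes called in this step 57.1% were higher, and 40.5% with median centring, which left the 4 members' calls as they were. Nfe2l2 rose by 0.79 (SE 0.206, 1.73-fold, adjusted p = 0.0228). Nfe2l3 rose by 1.19 (SE 0.19, 2.28-fold, adjusted p = 0.00221). Nfe2l3 stood at 0.22, 0.73 and 0.76 at E15.5 and at 1.83, 1.89 and 1.565 at P0.

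Of the small Maf genes, Mafk and Maff rose in the same interval. Mafk rose by 1.46 (SE 0.233, 2.75-fold, adjusted p = 0.00222), from -1.17, -1.08 and -0.37 to 0.71, 0.55 and 0.49. Maff rose by 1.52 (SE 0.4, 2.86-fold, adjusted p = 0.0236), from -2.94, -1.67 and -2.13 to -0.88, -0.49 and -0.82. Mafg differed by 0.50, with a 95% interval from 0.00688 to 0.999 and an adjusted p of 0.142, and was not called, while its second probe was (0.69, adjusted p = 0.0107).

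The calls of Nfe2l2 and Maff in this interval rested on single arrays. Without E15.5 replicate 1, P0 replicate 2 or P0 replicate 3, only Nfe2l3 and Mafk were called. The call of Nfe2l2 was also lost without E15.5 replicate 2, with processed signals (adjusted p = 0.0635), with deposited ratios (0.0632) and without spots marked as outliers (0.385), and that of Maff without P0 replicate 1. The Nfe2l3 probe shown above carried most of that gene's step, at 1.88 (3.68-fold), and the upstream probe differed by 0.50 and was not called (adjusted p = 0.0606).

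Between E11.5 and E15.5 no member was called, and neither was any of the 19478 genes (0%), with 316 genes at an unadjusted p under 0.05. This count rested on the pair of embryonic arrays that did not match their labels: without both, 2657 of 19151 genes (13.9%) were called between E11.5 and E15.5, 1720 higher and 937 lower, and still no member. No member was called from P0 to P7 either, where 2.44% of all genes were. Of the probes left out of gene means, the Nfe2l2 probe 25 kb upstream behaved otherwise: it stood at -2.23, -1.81 and -1.97 at P0 and at -0.48, -0.043 and -0.45 at P7, a rise of 1.68 (SE 0.251, 3.19-fold, adjusted p = 0.00565). Over the whole interval from E11.5 to P7, Nfe2l2 (0.89, 1.85-fold), Nfe2l3 (1.18, 2.27-fold) and Mafk (2.44-fold) were called higher, 3 of 10 beside 16.9% of all genes. Without both embryonic arrays that did not match their labels, 5 members were called over that interval beside 40.8% of all genes, these 3 higher, and Bach1 and Bach2 lower.

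Bach2, a repressor known from lymphocytes, had its highest mean at E15.5 by the deposited labels and a lower one at each later age. This peak came from E15.5 replicate 1 at 2.71, an array that did not match its label. E15.5 replicates 2 and 3 stood at 1.925 and 1.80, within the P0 range of 1.74 to 2.13. Levels of Bach2 were 2.00, 2.185 and 1.88 at E11.5, and 1.09, 1.42 and 1.785 at P7. The difference of -0.59 (95% interval -1.13 to -0.0424) was not called (adjusted p = 0.096) although the groups did not overlap.

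Nfe2, the partner of small Maf proteins in the erythroid and megakaryocyte lineages, was not called in any comparison. At P7 its levels were -0.69, 0.84 and -0.50 in WT and -0.20, -0.77 and 1.56 in Nrf2-/- esophagi. The mean of 5 megakaryocyte markers was 1.07 to 1.54 and 1.05 to 1.63 on the same arrays. Nfe2 was not well above background on any of the 6 adult arrays, and was therefore not tested there. By group means, E11.5 was at least 2.22-fold brighter than WT adult epithelium. The bound for WT P7, measured on 2 of 3 arrays, was 1.43-fold, but P7 and adult arrays overlapped. The P7 arrays at -0.69 and -0.50 lay within the WT adult range of -1.68 to -0.50, so this bound rested on the third. Nfe2l1 and Keap1 were called at no wild-type step and lay at -0.58 to 0.61 and 0.0049 to 1.43 on all wild-type arrays.

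From P7 to adult epithelium, 3 of the 9 members tested were called higher, where 19.9% of all 17812 genes were. Nfe2l2 rose by 1.24 (SE 0.189, 2.36-fold, adjusted p = 0.0019). Maff, a small Maf that is induced by stress and growth signals, rose by 1.89 (SE 0.246, 3.71-fold, adjusted p = 0.000914), from -1.53, -0.71 and -1.37 to 1.01, 0.59 and 0.45. Mafg rose by 0.51 (SE 0.136, 1.43-fold, adjusted p = 0.0189), from -0.13, -0.45 and -0.15 to 0.30, 0.16 and 0.35.

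Nfe2l3 and Mafk differed by 0.40 and 0.39 and were not called (adjusted p = 0.075 and 0.0764), although their groups did not overlap. The share of all genes without overlap was not counted. Within the first scan day, with WT adult replicates 1 and 2 only, the differences were 1.32 for Nfe2l2, 2.01 for Maff and 0.476 for Mafg. Mafg's call held in 14 of 22 alternatives. It was lost with scan day as a block (adjusted p = 0.0517), with own local background (0.18), with median centring (0.156), with all 27 arrays in 1 fit (0.101), and without WT adult replicate 1 (0.0579) or 3 (0.0519). Markers of other tissue layers moved with age: 7 of 7 striated muscle genes, 6 of 6 fibroblast genes and 4 of 4 endothelial genes were lower in adult epithelium, with medians of -3.68, -2.0 and -0.955, and 2 of 7 stratified epithelium genes were higher. Over all genes, 23.2% were lower and 19.9% higher. The part of tissue composition in the rises of Nfe2l2, Maff and Mafg was not tested.

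**Figure D2:**
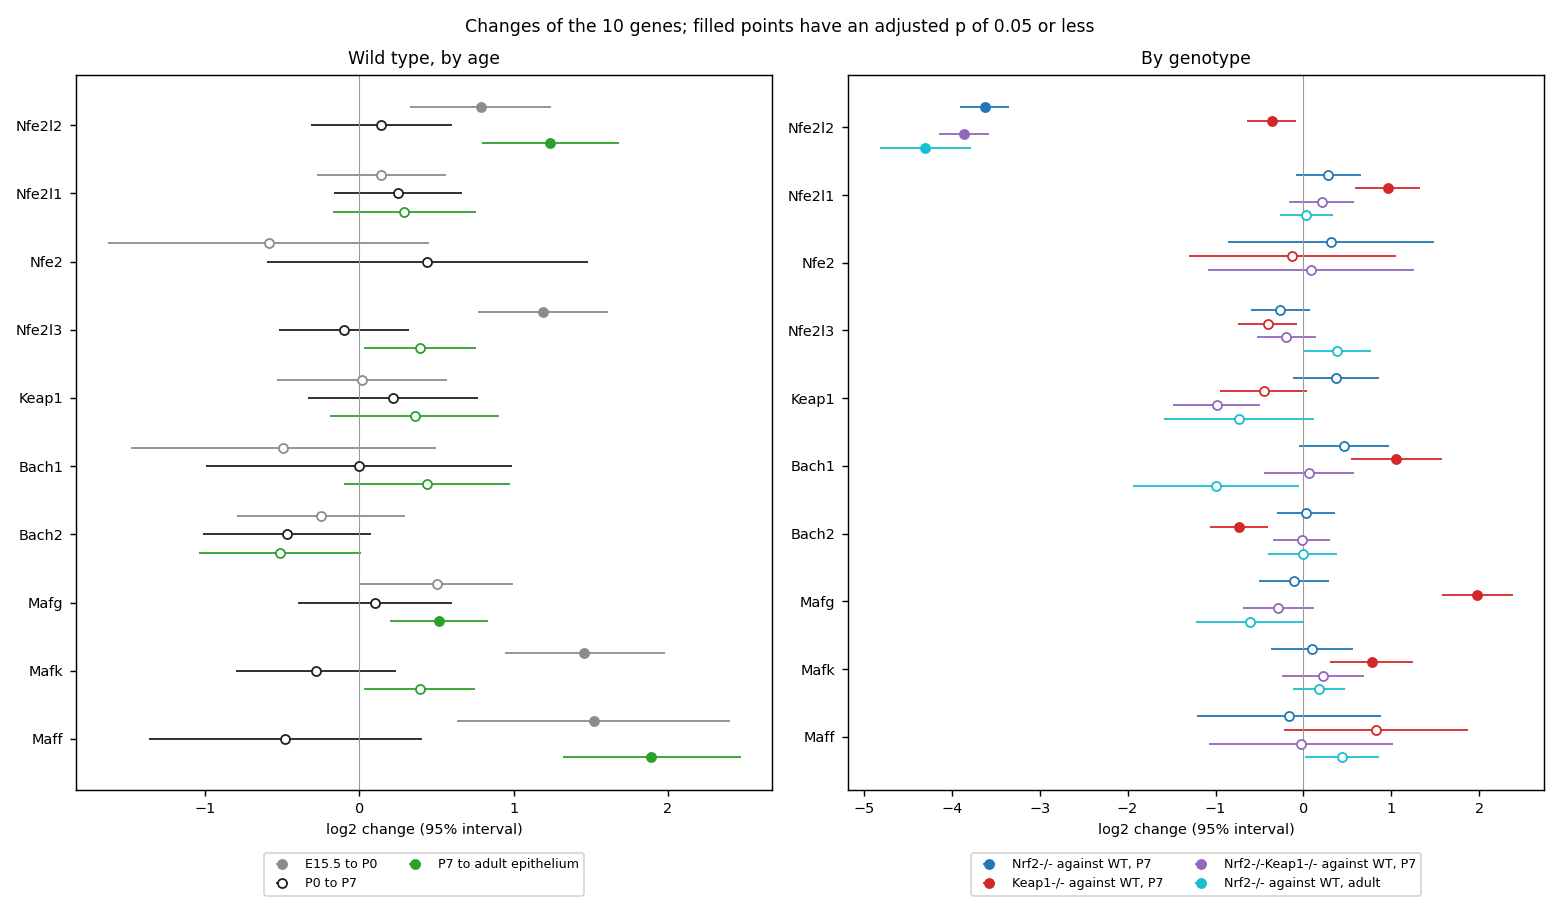
Log2 change of each gene with its 95% interval (horizontal axis), by age in wild type (left) and by genotype against wild type of the same age (right); colours are comparisons and filled points have an adjusted p of 0.05 or lower. Nfe2l2, Nfe2l3, Mafk and Maff are called from E15.5 to P0, and the Keap1-/- comparison holds the called changes of Nfe2l1, Bach1, Bach2, Mafg and Mafk.

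The knockouts were first checked on the targeted gene. In Nrf2-/- esophagi at P7, Nfe2l2 stood at -3.92, -3.92 and -3.82, a difference from WT of -3.63 (12.4-fold, SE 0.126, 95% interval -3.91 to -3.35, adjusted p = 2.36e-07). It was the only member called, and 0.0106% of all 18855 genes, 2 genes, were called lower, the other being Upk3a, a gene outside the family that is named because of this count. In Nrf2-/-Keap1-/- esophagi Nfe2l2 stood at -4.08, -4.13 and -4.14, a difference of -3.86 (SE 0.126, 14.5-fold, adjusted p = 1.47e-07). Again no other member was called, and 0.117% of all genes were called lower.

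The size of this fall depended on where in the gene it was read. The 3′-most probe stood at 0.15, 0.31 and -0.29 in WT and at -6.59, -6.335 and -6.56 in Nrf2-/- esophagi, where it was not well above background on any array, so that WT was at least 87-fold brighter. The neighbouring probe fell from -0.0079, 0.44 and -0.19 to -4.13, -4.10 and -4.13 (difference -4.20; 18.4-fold). The probe 16.2 kb upstream stood at -0.83, -0.74 and -1.16 in WT and at -1.04, -1.33 and -0.76 in Nrf2-/- esophagi, groups that overlapped.

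RNA read by this upstream probe was thus still measured in Nrf2-/- esophagi. The differences at the 16.2 kb probe were -0.13 for Nrf2-/-, -0.33 for Nrf2-/-Keap1-/- and -0.049 for adult Nrf2-/-, and none was called. The gene's mean, which includes this probe, understates the fall at its 3′ end. At the probe 25 kb upstream, Nrf2-/- esophagi stood at -1.12, -1.71 and -1.25, below all 3 WT arrays, but the difference of -1.03 was not called.

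**Figure D3:**
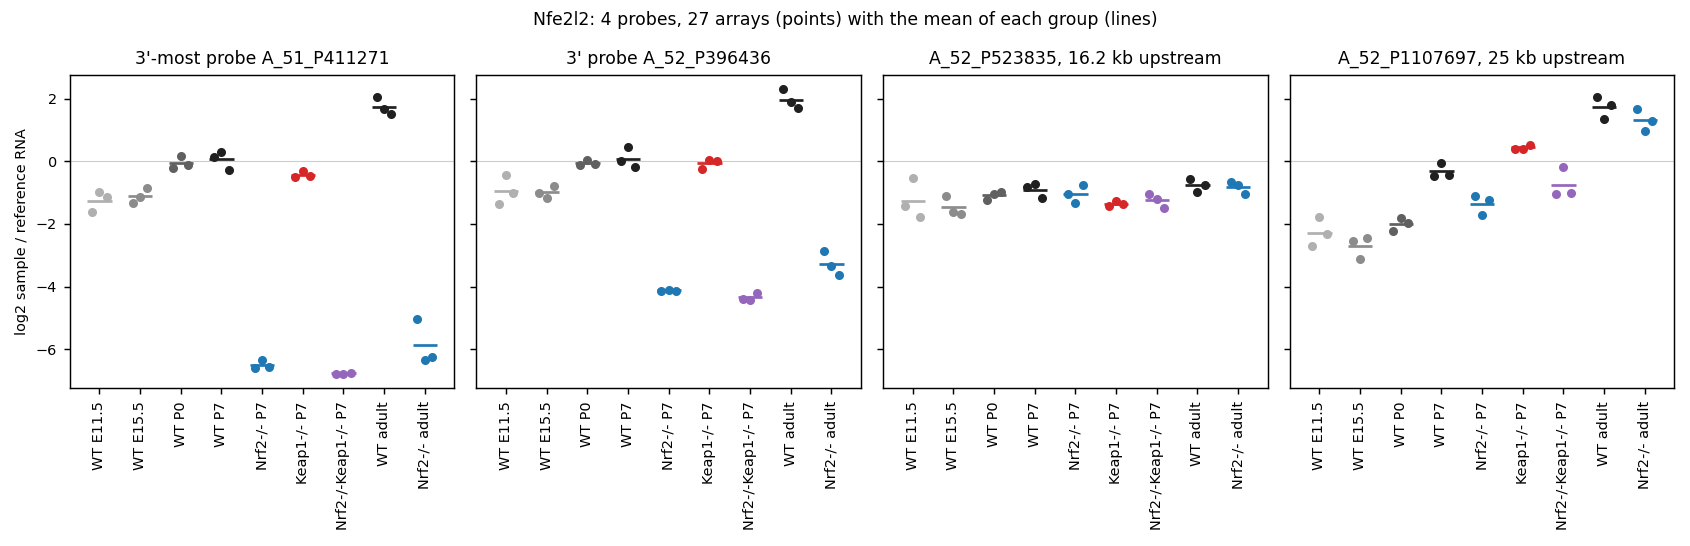
Log2 ratio of sample to reference RNA (vertical axis, shared) for the 4 Nfe2l2 probes in the 9 groups; points are arrays and lines group means. The pair of 3′ probes falls to -6.79 to -2.87 in the groups that lack Nrf2, and at the probe 16.2 kb upstream WT and Nrf2-/- arrays overlap at P7.

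Keap1 itself was a weaker check. Its probe stood at 0.54, 1.00 and 0.42 in WT esophagi and at -0.265, 0.22 and 0.64 in those labelled Keap1-/-, a difference of -0.45 (95% interval -0.946 to 0.0412, adjusted p = 0.144) with overlapping groups. In Nrf2-/-Keap1-/- esophagi it stood at -0.50, -0.32 and -0.19, below every WT array, a difference of -0.99 (SE 0.224, 95% interval -1.48 to -0.496, adjusted p = 0.0794). Neither met the threshold, and the probe was well above background on all 6 of these arrays. It can check the label only if it lies in the deleted part.

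The widest Keap1 gap was between the groups that lack Nrf2. Nrf2-/- esophagi stood at 1.02, 0.81 and 1.24 and Nrf2-/-Keap1-/- esophagi lay 1.36 lower, 2.57-fold (SE 0.224, 95% interval -1.85 to -0.866), with no overlap. The adjusted p was 0.2, in a comparison where none of the 18855 genes was called (0%) and 1178 had an unadjusted p under 0.05. On the slide that held both genotypes, Nrf2-/-Keap1-/- replicate 1 was 1.52 below the mean of the 3 Nrf2-/- arrays. With slide as a random block, used because WT P7 had a slide to itself, Keap1 was called in Nrf2-/-Keap1-/- against WT (adjusted p = 0.0363).

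In Keap1-/- esophagi, where the brake on Nrf2 is gone, 6 of the 10 members were called against WT. Of these 4 were higher, where 15.4% of all genes were, and 2 were lower, where 18% were. Over all genes called, 46.1% were higher, and 66% with arrays centred on the median, a setting under which 4 members were called higher and 0 lower. Mafg led. It stood at -0.13, -0.45 and -0.15 in WT and at 1.34, 1.82 and 2.04 in Keap1-/- esophagi, a rise of 1.98 (SE 0.182, 3.93-fold, adjusted p = 2.66e-05).

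Mafg's second probe rose as well. It stood at -0.050, -0.27 and -0.040 in WT and at 2.27, 2.54 and 2.69 in Keap1-/- esophagi, a rise of 2.62 (6.14-fold, adjusted p = 2.96e-07). Mafk rose less, by 0.78 (SE 0.212, 1.71-fold, adjusted p = 0.0173), and its call was lost without WT replicate 2, Keap1-/- replicate 2 or Keap1-/- replicate 3. Maff stood at 0.36 and 0.31 on 2 Keap1-/- arrays and at -1.81 on the third, and its difference of 0.83 (95% interval -0.22 to 1.87) was not called.

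Bach1, the heme-sensing repressor that competes with Nrf2 for small Maf proteins, also rose. It stood at 0.54, 1.11 and 0.17 in WT and at 1.5, 1.5 and 1.98 in Keap1-/- esophagi, a rise of 1.05 (SE 0.232, 2.08-fold, adjusted p = 0.00579). Bach2 went the other way, from 1.09, 1.42 and 1.785 to 0.65, 0.82 and 0.64, a difference of -0.73 (SE 0.149, 1.66-fold, adjusted p = 0.00383). Centring arrays on the median in place of loess took the Bach2 call away, at -0.312 (adjusted p = 0.255).

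Nfe2l1, the regulator of proteasome genes, stood at 0.016, -0.20 and 0.47 in WT and at 1.22, 0.91 and 1.05 in Keap1-/- esophagi. The rise was 0.96 (SE 0.168, 1.95-fold, adjusted p = 0.00161), and no array of another group reached the Keap1-/- levels. Its relative Nfe2l3 differed by -0.41 and was not called (adjusted p = 0.0602).

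Nfe2l2 RNA was not called higher with loss of Keap1. It stood at -0.73, -0.52 and -0.60 against -0.23, 0.0044 and -0.55 in WT, groups that overlapped, and the difference of -0.36 (SE 0.126, 95% interval -0.637 to -0.0817) passed the threshold narrowly (adjusted p = 0.0481). This call held in 8 of 28 alternatives, the adjusted p ran from 0.00632 to 0.824, and the sign turned under median centring (0.0447) and without spots marked as outliers (1.07, adjusted p = 0.117). The probe 25 kb upstream was higher in Keap1-/- esophagi, by 0.77 (1.70-fold, adjusted p = 0.0247), at 0.40, 0.38 and 0.53.

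Markers of other cell types differed in both directions with the Keap1-/- label, where 15.4% of all genes were called higher and 18% lower. Of 5 megakaryocyte and platelet markers 2 were lower, Ppbp (-6.62, 98.5-fold) and Pf4 (-2.0), and the array means were -0.456 to -0.206 against 1.07 to 1.54 in WT. Of 5 neutrophil markers tested, Ltf was lower (-5.35, 40.8-fold) and S100a8 higher (3.42, 10.7-fold), with array means of 1.54 to 2.38 against 1.82 to 3.43. Of 7 striated muscle markers 2 were higher and 1 lower (median 0.423), with array means of 5.1 to 5.69 against 4.56 to 5.24.

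All 5 smooth muscle markers were lower (median -1.21; array means 1.90 to 2.87 against 3.49 to 4.0 in WT), as were 5 of 6 fibroblast markers (median -1.17; 0.46 to 0.92 against 1.75 to 2.07) and 5 of 6 leukocyte markers (median -0.53; -1.29 to -0.86 against -0.49 to -0.35). Of 7 stratified epithelium markers 1 was higher and 1 lower, with array means of 4.25 to 4.49 against 4.13 to 4.64. None of 4 endothelial and none of 4 T cell markers was called, and 1 of 8 erythroid, 1 of 4 neuron and glia and 1 of 3 airway markers tested were higher. The part of these shifts, or of slide and scan, in the changes of Mafg, Bach1, Nfe2l1, Mafk and Bach2 was not tested.

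Whether the Keap1-/- changes were seen without Nrf2 was read from the double knockout. Against Nrf2-/-Keap1-/- esophagi, Keap1-/- esophagi had 5 members called. Of these 4 were higher, where 15.2% of all genes were, and 1 was lower, where 18.3% were. Besides Nfe2l2, which the double knockout lacks (3.50), these were Mafg at 2.26 (4.79-fold, adjusted p = 1.07e-05), Bach1 at 0.99 (1.99-fold, adjusted p = 0.00779), Nfe2l1 at 0.75 (1.68-fold, adjusted p = 0.00623) and Bach2 at -0.71 (1.63-fold, adjusted p = 0.0046). This comparison shares the Keap1-/- arrays with the one against WT, and so shares their slide and scan.

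In the double knockout Mafg stood at -0.71, -0.55 and -0.32, within reach of WT. Against WT its difference was -0.28 (95% interval -0.687 to 0.118). Bach1 differed from WT by 0.060 (-0.452 to 0.571), Nfe2l1 by 0.21 (-0.162 to 0.58) and Bach2 by -0.022 (-0.351 to 0.306). None of these intervals reaches the changes measured in Keap1-/- esophagi against WT, although a p above the threshold does not show that levels were equal. Mafk lay between, with a difference of 0.55 between Keap1-/- and double knockout that was not called (adjusted p = 0.0679).

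In adult epithelium, Nfe2l2 was again the only one of 9 members tested that was called between Nrf2-/- and WT, where 0.219% of all 17837 genes were called lower. It stood at 1.27, 0.86 and 0.81 in WT and at -2.85, -3.48 and -3.64 in Nrf2-/- epithelium, a difference of -4.30 (SE 0.226, 19.7-fold, adjusted p = 0.000526). Within the scan day that held both genotypes, with 1 WT array and 2 Nrf2-/- arrays, the difference was -3.98. Nrf2-/- replicate 3 stood apart from its group for several members, at -1.04 for Bach1 against 0.79 and 0.39, at -0.62 for Keap1 against 0.74 and 0.72, and at -1.01 for Mafg against 0.087 and -0.083. This array was the only one on its slide and its scan day, so sample, slide and scan cannot be told apart for it.

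The differences that this array pulled down, -1.0 for Bach1, -0.73 for Keap1 and -0.61 for Mafg, were not called (adjusted p = 0.278 to 0.357). Without that array alone they were -0.456, -0.286 and -0.27. On the scan day that held both genotypes, which also leaves only WT replicate 3 beside Nrf2-/- replicates 1 and 2, they were -0.547, -0.707 and -0.348. The second Mafg probe, at 0.68, 0.61 and 0.80 in WT and 0.44, 0.345 and 0.27 in Nrf2-/- epithelium, showed the 3 Nrf2-/- arrays close together and below WT. No member's Nrf2 effect differed between adult and P7, where 0.0835% of all 19170 genes did, and the difference of effects nearest to the threshold was that of Nfe2l3 (0.64, adjusted p = 0.341).

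Ordered by mean level, Nfe2l2 stood highest in WT adult epithelium, then WT P7, WT P0, Keap1-/- P7, WT E11.5, WT E15.5, and last the 3 groups that lack Nrf2. No order is given among these 3, since the 3′-most probe was not well above background in Nrf2-/- esophagi at P7. Neighbours from WT P7 down to WT E15.5 overlapped, and WT adult and WT P7 did not, nor did WT E15.5 and the groups that lack Nrf2. Mafg stood highest in Keap1-/- esophagi and next in WT adult epithelium, with no overlap between them. Nfe2l1 was highest and Bach2 lowest in Keap1-/- esophagi.

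The genes of this pathway were read from lists of what the members act on. The counts below stand beside these shares of all genes. Called higher were 11.3% from E15.5 to P0, 19.9% from P7 to adult and 15.4% in Keap1-/- esophagi. Called lower were 8.51%, 23.2% and 18%, in that order, and 0.219% in adult Nrf2-/- epithelium. Classical Nrf2 targets, 38 genes of glutathione transfer, antioxidant defence and NADPH supply, were called higher from E15.5 to P0 for 17 of 37 tested (median 0.86, against -0.00715 over all genes), led by the glutathione transferases Gsta1 (4.13) and Gsta2 (3.64). From P7 to adult 29 of 38 were higher and 1 lower (median 1.12), led by Gstm3 (4.0, 16-fold), the heme oxygenase gene Hmox1 (3.82) and Gstm1. None was called from P0 to P7.

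In Keap1-/- esophagi 36 of 38 targets were higher and none lower, with a median of 2.53. Gstm3 rose by 6.14 (70.7-fold), Gclc, the catalytic subunit of glutathione synthesis, by 6.04 (66-fold) and Gstm1 by 5.97 (62.8-fold). None was called in Nrf2-/- (median -0.18) or Nrf2-/-Keap1-/- esophagi (median -0.148), and 37 of 38 were higher in Keap1-/- than in the double knockout. In adult Nrf2-/- epithelium 14 of 38 were lower (median -0.655), led by the quinone reductase Nqo1 (-3.41, 10.7-fold), Akr1b8 (-2.75) and Mgst1 (-2.42). Over all genes, the 81 calls of this adult comparison became 40 with scan day and 30 with software version as a block. The targets were not counted with these blocks.

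Genes that Bach1 is known to repress rose in Keap1-/- esophagi beside Bach1 itself. Their list is named for heme and iron but also holds genes of other functions, such as Slc7a11, Gclm and Me1. Of 9 tested, 7 were higher and none lower (median 1.93), led by the cystine carrier gene Slc7a11 (5.71), Gclm (3.34) and Hmox1 (3.17). From P7 to adult 6 were higher and 1 lower, and from E15.5 to P0 4 of 8 were higher, led by Me1 (2.01) and Fth1 (1.77). Of these 9 genes, 7 also stand in the list of Nrf2 targets, so the lists are not separate readings.

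Proteasome subunits, known targets of Nrf1, were read beside Nfe2l1. In Keap1-/- esophagi 17 of 31 were higher and 2 lower (median 0.503), beside 15.4% and 18% of all genes. The largest changes were those of Psmb5 (1.46, 2.75-fold), Psmc5 (1.40) and Psmd7 (1.06). Against the double knockout the counts were 16 and 3, beside 15.2% and 18.3% of all genes. Against WT none was called in either group that lacks Nrf2. Of 6 genes of Nrf1 processing, 3 were higher in Keap1-/- esophagi, among them the segregase gene Vcp (0.85), and Ngly1, which removes glycans from Nrf1, was lower (-0.57).

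Of 14 genes of the Keap1 complex and Nrf2 turnover, 4 were called in Keap1-/- esophagi (28.6%, beside 33.5% of all genes). Higher were Sqstm1 (0.62), which binds Keap1 for autophagy, Fbxw7 (0.57) and Dpp3 (0.47), and 1 gene was lower. From E15.5 to P0, Sqstm1 (1.03) and Gsk3b (0.63) were higher and Cand1 (-0.95), which exchanges cullin receptors, was lower. Of 12 co-activators and bZIP partners tested, Fos (2.60), Junb (2.55) and Jund (1.01) were among 4 higher at P0, and from P7 to adult Fos was lower (-1.605).

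**Figure D4:**
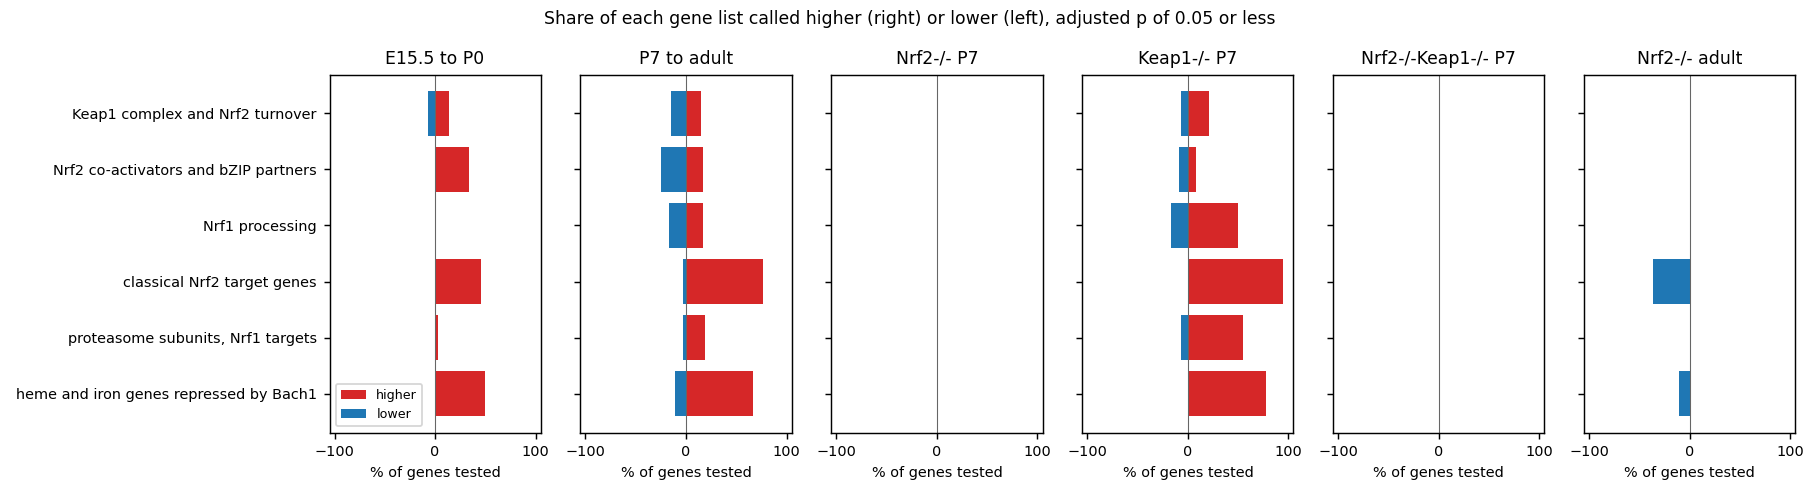
Share of the genes tested in each list that were called higher (red, right) or lower (blue, left), in percent, for 6 comparisons; empty panels mean that no gene of any list was called. Classical Nrf2 targets are higher for 36 of 38 genes in Keap1-/- esophagi and lower for 14 of 38 in adult Nrf2-/- epithelium.

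Promoters of all members with a window were searched for the core of the antioxidant response element, TGACNNNGC, on either strand. Windows reach from 250 bases before to 50 after each start (RefSeq, GRCm38.p6). The core was in 12.4% of 32851 promoters and in 4 of the members' 15 promoters. By gene, it was in at least 1 promoter of 4 of the 9 members with a window, against 14% of all genes. Capitals mark the match, and positions are those of the bases printed.
Nfe2l2, chr2:75704880-75704913, minus strand: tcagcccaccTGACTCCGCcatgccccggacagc
Mafg, chr11:120633746-120633784, minus strand, match on the opposite strand: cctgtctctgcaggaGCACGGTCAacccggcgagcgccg
Mafk, chr5:139791508-139791535, plus strand, match on the opposite strand: cgcgcgatcccggaaGCGGTGTCAgtac
Maff, chr15:79346494-79346532, plus strand: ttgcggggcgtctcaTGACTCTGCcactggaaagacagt

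The matches begin 240, 222, 13 and 112 bases before the start, in that order. Nfe2l1, Nfe2l3, Bach1 and Bach2, which were also called in comparisons above, had no match to the core. The NF-E2 and AP-1 site TGAGTCA, in 5.2% of promoters, and the NF-E2 site with flanking GC, TGACTCAGC, in 0.454%, were found in no member's window on either strand. The latter also holds the core searched first. Such a match is a description of letters, and no binding was measured here.

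The genes whose pattern over all 27 arrays was most like that of a member were taken by Pearson r among 20484 genes, which share the arrays and their groups. Nearest to Mafg, after its own second probe (0.938), were Slc48a1 (0.933), a heme carrier gene, and Srxn1 (0.929), the sulfiredoxin gene. Nearest to Nfe2l1 were Ephx1 (0.908) and Aox1 (0.907), both in the list of Nrf2 targets. Maff had Prdx5 (0.963) among its nearest. Mafk was most like Irf2bp2 (0.967), Nfe2l3 like Arap2 (0.963), Bach1 like Ep400 (0.916) and Bach2 like Zfp386 (0.947). Nfe2l2 had no near match, with Pin4 at 0.761, and neither had Keap1, with Slc22a21 at 0.682.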

How the data were processed

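RNA of 27 mouse esophageal samples was hybridised to Agilent 2-colour arrays with 41174 probes. The authors deposited scanner files with mean spot intensity and local background intensity in both colours, together with background-subtracted, dye-normalized intensities, and log10 ratios of Cy5 to Cy3 as read by Agilent Feature Extraction (version 9.1 per the labels' processing notes, 10.5.1.1 and 10.7.3.1 per the file headers). Members and gene lists were chosen with earlier results of these data known. Groups follow the deposited labels, and log2 ratios were computed here from the deposited intensities.

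Mean intensities were corrected by normexp (offset 50) and normalized by loess within each array in limma 3.58.1 (R 4.3.3, statmod 1.5.0). Spots marked as outliers were kept, and 43 spots whose local background exceeded 5 times their array's median were left out. Spots were averaged to probes and probes to genes; 13 probes enter the members' means. Of 432 member probe values, 73 were marked as outliers, 21.6% with the older version and 3.57% with the newer, and none was saturated.

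Genes entered a test where 3 or more of its arrays had a probe well above background in the Cy5 channel. Fits with lmFit and eBayes held the groups analysed together: 4 wild-type time points, 4 genotypes at P7, wild-type P7 and adult, adult genotypes, and both ages and genotypes for the difference of effects. The study used SAM. Fits were tested on simulated data. With 3 arrays in a group, and replicates that the labels call biological, the number of arrays limits the precision. A bound compares the bright group's mean with the lowest signal well above background on the dim arrays, after Aquantile, and is open to dye bias. All 10 members are named throughout; from each gene list the called genes with the largest change may be named, up to 3 a comparison. Alternatives changed the background correction, normalization, filter, probes, samples and blocks, and left out each array in turn. A fit on all 16 probes and a fit on single probes were added after seeing the data. Some marker lists and genes among the nearest patterns are not reported here.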

Additional observations from a re-analysis of the deposited data

Results flagged for a closer look

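The effect of Nrf2 loss differed between adult epithelium and P7 esophagus for 2 of the 38 classical Nrf2 targets, by the test of the difference itself over 19170 genes. For Akr1b8, an aldo-keto reductase gene, the log2 change in Nrf2-/- against WT was -0.033 at P7 (adjusted p = 0.966) and -2.75 in adults (adjusted p = 0.00044), a difference of -2.72 (SE 0.265; adjusted p = 0.00352). For Gstp1, a glutathione transferase gene, it was -0.076 at P7 (adjusted p = 0.857) and -1.80 in adults (adjusted p = 0.00101), a difference of -1.73 (SE 0.161; adjusted p = 0.00332). Age and tissue part cannot be told apart in this contrast, since adult samples were epithelium and P7 samples whole esophagus. All adult Nrf2-/- arrays also had the newer software version and a later scan day than the P7 arrays in the contrast. Of the WT adult arrays, only replicate 3 did. Software version and scan day thus largely followed genotype in adults and not at P7. Whether these 2 differences hold with them as blocks was not read.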

How the results depend on the processing

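Counts of called members were within 1.5 times in 358 of 376 alternatives, and single members kept direction and side of the threshold in 881 of 958. The first share includes counts that stayed at 0, as from E11.5 to E15.5, from P0 to P7 and in Nrf2-/-Keap1-/- against Nrf2-/-. Leaving out spots marked as outliers changed most: members called were 2 in the F-test, 0 from P7 to adult, 0 in Nrf2-/- and 0 in Nrf2-/-Keap1-/- at P7, 3 in Keap1-/-, 3 in Keap1-/- against Nrf2-/-Keap1-/-, and 0 in adult Nrf2-/-. Some members had too few values left to be tested in this setting. These were Maff in the F-test, Maff and Mafg from P7 to adult, and Nfe2l1 and Bach2 in Keap1-/- against WT and against the double knockout. The marks took 14 and 15 of 27 values of the 3′ probes of Nfe2l2, whose differences became -1.29 (adjusted p = 0.439) in Nrf2-/- and -1.52 (0.165) in Nrf2-/-Keap1-/- at P7 and -1.96 (0.276) in adults. From E11.5 to P7, 5 members were called with all 27 arrays in 1 fit and 5 without E11.5 replicate 3 and E15.5 replicate 1. Requiring at least 2-fold left 2 in Keap1-/- and 2 in Keap1-/- against the double knockout. The slide block, fitted there as random, gave 2 in Nrf2-/-Keap1-/-, and each spot's own local background gave 1 (Nfe2l3) in the difference of Nrf2 effects.

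Nfe2l2 in Keap1-/- reversed to 1.07 (adjusted p = 0.117) without outlier-marked spots and to 0.0447 (0.824) under median centring. In Nrf2-/-Keap1-/- against Nrf2-/- it reversed to 0.123 with processed signals, 0.123 with deposited ratios and 0.0116 with scale normalization; the cause was not tested. Leaving out 1 array gave 2 to 5 members from E15.5 to P0, 3 to 5 from E11.5 to P7 (5 without E15.5 replicate 1), 5 to 8 in Keap1-/- against the double knockout (8 without Keap1-/- replicate 1), 3 to 5 in the F-test, 2 to 4 from P7 to adult and 4 to 6 in Keap1-/-; the other counts did not move. Calls lost in single settings included Bach1 in Keap1-/- with all 27 arrays in 1 fit (0.0659), Maff from E15.5 to P0 without both embryonic arrays (0.0729), and Nfe2l3 from E15.5 to P0 with own local background (0.155) or the brightest probe (0.0596). Keap1 was called in Keap1-/- with processed signals (-0.713; 0.0458).

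Scaling moved the median of all genes by over 0.1 with median centring in Keap1-/- (0.111), in adult Nrf2-/- (0.402) and in the difference of Nrf2 effects (0.304), with processed signals from E11.5 to P7 (-0.111), from P7 to adult (0.131) and in adult Nrf2-/- (-0.105), and with own local background in adult Nrf2-/- (0.122). The share of called genes that were higher moved from 55.7% to 36.3% from E11.5 to P7 with median centring, from 46.3% to 27.2% from P7 to adult with own local background, and in adult Nrf2-/- from 51.9% to 23.3% with the software version as a block, 29.4% with processed signals, 69.7% with own local background and 85% with median centring. Over all genes, the counts called there ran from 20 (median centring) to 1642 (own local background) in place of 81, in Nrf2-/-Keap1-/- from 3 (only the 2 groups compared) to 490 (slide block) in place of 81, in the difference of Nrf2 effects from 5 (slide block) to 1095 (own local background) in place of 16, and from P0 to P7 from 241 (own local background) to 1091 (only the 2 groups compared) in place of 475.

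Replicate numbers did not pair the samples: same-numbered arrays deviated together at a mean r of -0.0689 to 0.12 over the 5 fits. With the replicate number as a block, 4 members were called from E11.5 to P7, 5 in Keap1-/- and 6 in Keap1-/- against the double knockout, and the only member call lost was Nfe2l2 in Keap1-/- (adjusted p = 0.0612); over all genes the block gave 20 calls in place of 81 in adult Nrf2-/-. A scan or version block could not be fitted for the time points up to P7 or for Keap1-/-. Low signal limits Nfe2 in adults and the second Bach2 probe, which was not well above background on any array.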
